A study of Mus musculus with 7 samples.

Results

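The histone cluster genes were followed in kidneys of LBR-null mice and a WT littermate. They were taken as all gene symbols of the deposited files that start with Hist1h, Hist2h, Hist3h or Hist4h, which gave 68 of 24328 rows. The rule used names only and no measured value. Of the 68 rows, 54 belong to the Hist1 cluster on chromosome 13, 10 to Hist2, 3 to Hist3 and 1 to Hist4. By the protein they encode, 6 are linker histone H1 genes, 18 are H2A, 19 H2B, 12 H3 and 13 H4 genes, pseudogenes included.

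The comparison was between 3 homozygous Lbric-J/ic-J mice (LBR-null, numbered 4001, 4002 and 4007) and 1 Lbr+/+ littermate (WT, numbered 4009), all C57BL/6J and 4 weeks old. The ic-J allele is a loss-of-function mutation of the lamin B receptor that is present in every cell of the animal. The right kidney was frozen and pulverized, and polyadenylated RNA was sequenced. Kidneys 4001, 4007 and 4009 were each sequenced as 2 libraries and kidney 4002 as 1, so that 5 LBR-null and 2 WT libraries were available, with 20694016 to 26333284 reads on genes each. Members took 3424 to 4978 of these reads in the LBR-null libraries and 6628 and 5928 in the WT libraries. The mouse was the replicate (n = 3 LBR-null, n = 1 WT), and the 2 WT values below are libraries of the same animal. In a whole kidney, fewer cells that express a gene and less RNA per cell cannot be told apart.

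Most genes of this family are replication-dependent. Their mRNA is made during S phase, has no introns and ends in a short hairpin that is bound by the stem-loop binding protein SLBP, in place of a poly(A) tail. Libraries of polyadenylated RNA therefore hold little of it. A minority of cluster genes can also be read through the hairpin to a polyadenylation signal further on, or spliced past it, and such polyadenylated forms are known from cells that have left the cell cycle. Replication-independent variant histones, such as those of the H2afz, H3f3a and H3f3b genes, lie outside the clusters and carry ordinary poly(A) tails.

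The hairpin was searched for in the mm9 genome after the annotated stop codon of coding gene models. Of the 68 members, 63 had a match with all 6 base pairs, 21 to 58 bases after the stop codon. The most frequent form was shared by 39 members of the H1, H2A, H2B and H3 classes, and a form with another base pair in the stem was found in 8 H4 genes alone. The sites of members whose values are described below are shown because they set the 3′ end of the classical mRNA, with the 16 bases of the hairpin in capitals and 5 bases on each side.
Hist1h2bc, hairpin at chr13:23776516-23776531, plus strand: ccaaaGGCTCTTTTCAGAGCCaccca
Hist1h1c, hairpin at chr13:23831381-23831396, plus strand: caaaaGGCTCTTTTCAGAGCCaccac
Hist3h2a, hairpin at chr11:58768674-58768689, plus strand: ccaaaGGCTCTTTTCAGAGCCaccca
Hist1h4h, hairpin at chr13:23623327-23623342, plus strand: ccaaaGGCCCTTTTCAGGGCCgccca
Hist2h2ac, hairpin at chr3:96024341-96024356, minus strand: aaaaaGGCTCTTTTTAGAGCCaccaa

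For 21 of these 63 members, an annotated transcript ended at least 100 bases past the hairpin. In 17 of them the hairpin lay within an exon and in 4 it was removed by splicing. Hist1h2bc is of the second kind. Its first exon (chr13:23776068-23776490) stops before the hairpin, and its second exon (chr13:23784045-23784357) ends 7826 bases past it. A hexamer of the polyadenylation signal, AATAAA or ATTAAA, stood 10 to 35 bases before the end in 14 of the 21 models. The sites of the 5 members with the highest mean among those with a hexamer are given below, with the hexamer in capitals between 10 bases on each side.
Hist1h2bc, chr13:23784321-23784346, plus strand: atgtatatatAATAAAtgtcatgtaa
Hist1h1c, chr13:23832201-23832226, plus strand: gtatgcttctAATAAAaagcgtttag
Hist3h2a, chr11:58770148-58770173, plus strand: tgtctacaaaATTAAAggaagttcca
Hist3h2ba, chr11:58762999-58763024, plus strand: taatggtattAATAAAtttggttcaa
Hist1h2be, chr13:23675613-23675638, minus strand: actgttcattATTAAAgcattcctga

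The deposited values were read counts normalized between libraries, and 1 read was worth 0.787 to 1.148 normalized counts. Of the 68 member rows, 11 were at 0 in all 7 libraries (16.2%, against 11.8% of all 24328 rows). They were Hist1h2ba, Hist1h2bl, Hist1h2bm, Hist1h2bq, Hist1h2br, Hist1h2ao, Hist1h2ap, Hist1h4m, Hist2h2aa1, Hist2h3c1 and Hist2h3c2, named here after their values were seen. A count of 0 allows up to 3 reads in a library, which is 2.36 to 3.44 normalized counts, for counting error only. Another 42 members were above 0 somewhere but had a mean under 5 over the 4 mice, 11 had a mean from 5 to 100, and 4 had a mean of at least 100. Only 19 rows were above 0 in all 7 libraries.

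The sequence of the rows at 0 was in part not their own. In 6 members every 150-base window of the exons (the read length) had an exact copy elsewhere in the genome, namely Hist1h2ao and Hist1h2ap, Hist1h2bq and Hist1h2br, and Hist2h2aa1 and Hist2h2aa2. Of these 6, 5 were at 0 in all libraries, and Hist2h2aa2 was above 0 in 3. Of the 19 members without any copied window, 1 (Hist1h2bm) was at 0. The median share of copied windows was 85.8% for the rows at 0 and 22.9% for the other members. How reads that fit more than 1 place were counted is not given in the sources used here, so a listed 0 in a copied member need not mean that the gene is silent, and the part of copied sequence in the zeros was not tested.

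Hist1h2bc, Hist1h1c, Hist3h2a and Hist2h2be together took 90.7% to 94.9% of the normalized counts of all members in every library. Per kilobase of annotated exon, the mean level over the 4 mice was 1884 for Hist1h2bc, 816 for Hist1h1c, 275 for Hist3h2a and 205 for Hist2h2be. The next in order were Hist1h4h at 85.8 and Hist3h2ba at 79.2 normalized counts per kilobase. Hist2h2be was among the 5 members for which no hairpin was matched. The other 4 were Hist1h2an, Hist2h2bb and the pseudogenes Hist3h2bb-ps and Hist2h3c2. The pseudogenes have no coding model and were not searched.

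Members with an annotated end past the hairpin held 83.1% of the normalized counts of the family, and the 5 without a matched hairpin held 13.6%, nearly all of it Hist2h2be. The 42 members with a hairpin and no annotated end past it held 3.31%. These shares rested on a few genes, since the median level per kilobase was 2.52 for members with an annotated end past the hairpin and 3.17 for members with a hairpin and no such end. An annotated 3′ end follows from earlier sequenced RNA, and a longer model also collects more reads. The highest level per kilobase was 1884 in the first group and 85.8 in the second. No H3 gene reached a mean of 5, and the highest of the 12 was Hist2h3b at 3.45.

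**Figure D1:**
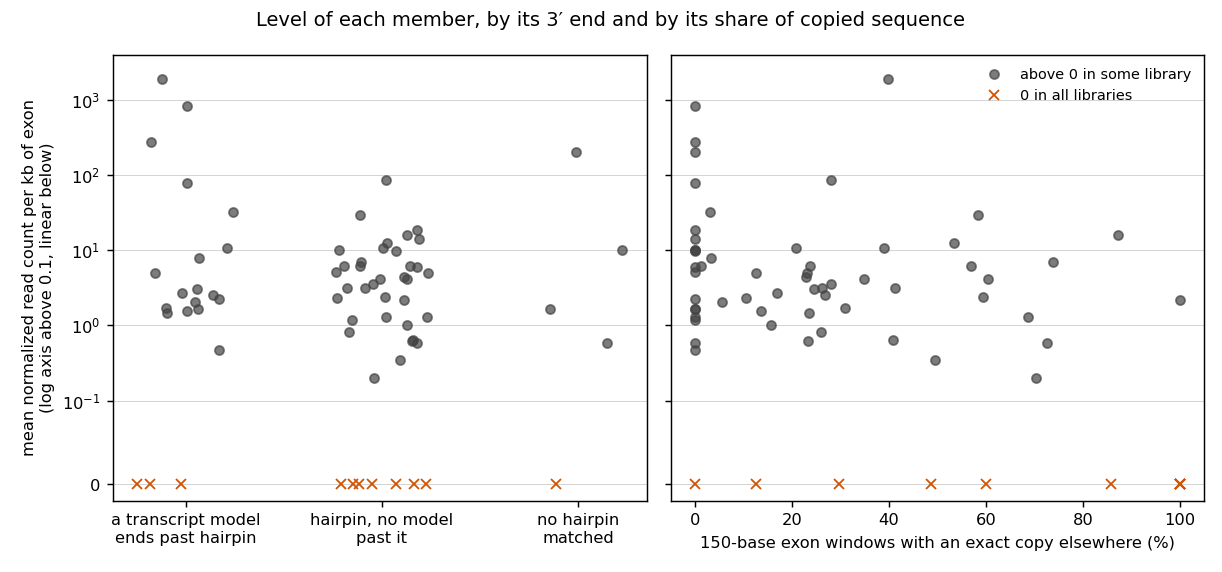
Mean normalized read count per kilobase of annotated exon over the 4 mice (log axis above 0.1, linear below) for each of the 68 members, by the 3′ end of its gene model (left) and by the share of its 150-base exon windows that have an exact copy elsewhere in the genome (right, in percent). Circles are members above 0 in some library and crosses the 11 rows at 0. The highest member, Hist1h2bc at 1884, has an annotated end past the hairpin, and 5 of the 6 members with 100% copied windows are at 0.

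Summed over all 68 rows, the LBR-null libraries held 4725 and 4417 normalized counts (mouse 4001), 2944 (mouse 4002), and 3212 and 3216 (mouse 4007). The WT libraries held 5219.5 and 5363. The sum was therefore lower in every LBR-null library, with a mean of 3576 ± 872 (SD, n = 3 mice) against 5291 in the WT mouse, and a log2 ratio of −0.57. An exact permutation of 4 mice cannot give a one-sided p below 0.25, and the sums are given as a description with no test. Without Hist1h2bc the other 67 rows summed to 2611 ± 864 in LBR-null mice and 2640.4 in the WT mouse, a log2 ratio of −0.016. Most abundant among these was Hist1h1c, at 654 to 2094 in LBR-null mice and 1148 in WT. The 64 rows without the 4 highest members summed to 197 to 273 in LBR-null libraries against 316 and 329 in WT (log2 ratio −0.41). The Hist1 rows without Hist1h2bc and Hist1h1c summed to 136 to 182 against 240 and 249 (log2 ratio −0.57). Neither of these 2 smaller sums overlapped between the genotypes. Hist1h2bc alone made up 50.1% of the family's normalized counts in the WT mouse and 27.0% in the LBR-null mice.

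The classes differed in this respect. The H2B rows summed to 1463 to 1899 in the LBR-null libraries and to 3215 and 3273 in the WT libraries, and this sum was 2.02-fold higher in the WT mouse. Without Hist1h2bc the H2B rows summed to 533 to 797 in LBR-null and to 584 and 602 in WT, and the groups overlapped. H2A sums were 442 to 624.6 against 686 and 787, and H4 sums were 59.2 to 99.7 against 117 and 123, so neither overlapped between the genotypes. Each of these gaps rested on the highest gene of the class, as for H2B. Without Hist3h2a the H2A rows summed to 30.2 to 48.1 against 29.9 and 40.7, and without Hist1h4h the H4 rows summed to 38.3 to 59.3 against 62.2 and 57.9, and both overlapped. The H1 sum ranged from 684 to 2129.7 in LBR-null libraries, on both sides of the WT values of 1187 and 1153. The H3 sum was 6.38 to 17.2 against 14.96 and 26.2, at a depth of a few reads per gene. The 53 members too low to be tested summed to 50.1 to 95.4 in LBR-null and 91.3 and 115 in WT, and overlapped.

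**Figure D2:**
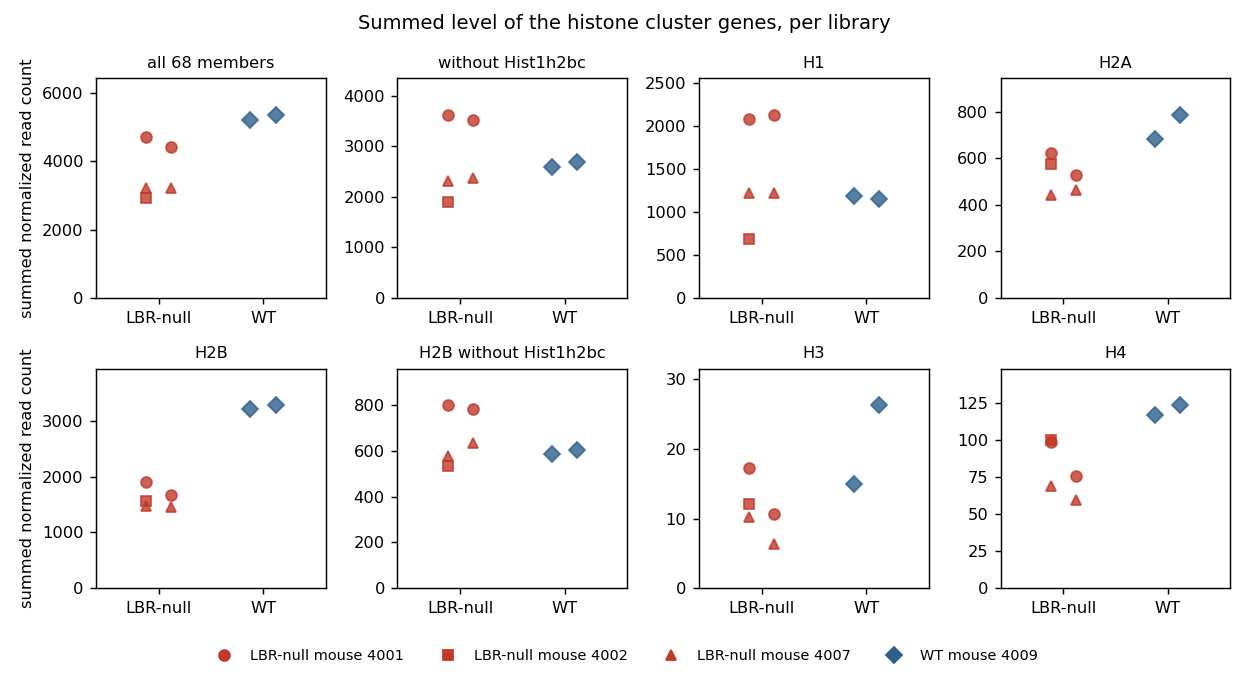
Summed normalized read count per library (vertical axes, each starting at 0) of all 68 members, of the members without Hist1h2bc, and of each histone class. Each point is a library, its shape is the mouse, and red is LBR-null and blue is WT. The WT libraries lie above every LBR-null library for all members and for H2B, and among the LBR-null libraries when Hist1h2bc is left out.

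In all, 15 of the 68 members had a mean of at least 5 and entered the fit over 17283 genes, limma on log2(normalized count + 1) of mouse means. None passed an adjusted p of 0.05 with a 2-fold change, and neither did any of the 17283 genes (background 0%). At an unadjusted p under 0.05, limma had 2 members lower and 0 higher, where 8.05% of all tested genes were lower and 10.7% higher. By the criterion of a 2-fold difference between the LBR-null mean and the WT mouse, 3 of the 15 were lower (20.0%, against 7.04% of tested genes) and 2 were higher (13.3%, against 14.5%). For 5 members the highest LBR-null library lay below the lowest WT library (33.3%, against 25.7%) and for 2 the lowest LBR-null library lay above the highest WT library (13.3%, against 25.5%). By these criteria the higher members were Hist1h2af and Hist2h2ac, and the lower ones included Hist1h2ac. These genes reached the minimum mean of 5 only through the group in which each was high. The filter thus favoured their direction, and the counts by these criteria rest in part on it. The median log2 difference of the 15 was −0.34, beside 0.0073 for all tested genes.

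Hist1h2bc encodes an H2B of the major protein form and was the member with the highest level. It was listed at 1102 and 890.1 in the libraries of LBR-null mouse 4001, at 1038 in mouse 4002, and at 892 and 831 in mouse 4007. The WT libraries held 2631 and 2670.5, from 3341 and 2952 reads. All 5 LBR-null libraries were well below both WT libraries, and the 3 LBR-null mice lay close together at 965 ± 92.0 (SD, n = 3). The WT mouse was 2.75-fold higher, and limma gave a log2 difference of −1.46 (SE 0.24) with an adjusted p of 0.0906. With the recovered reads, edgeR gave −1.48 with an adjusted p of 0.0755, and DESeq2 gave −1.48 with an adjusted p of 8.6e-05. Hist1h2bc was thus called lower in LBR-null by DESeq2, as were 3.48% of the genes it tested, and not by edgeR, which called 0.156% of genes lower, or by limma. Leaving out mouse 4001 or mouse 4002 brought the limma adjusted p to 0.0162 and 0.0418, and leaving out mouse 4007 brought it to 0.282. By the p of limma it stood at rank 131 of 17283 genes.

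Of the exon windows of Hist1h2bc, 39.7% had an exact copy elsewhere in the genome. The next highest H2B gene of the Hist1 cluster was Hist1h2be, at a mean of 19.3 normalized counts over the 4 mice against 1387 for Hist1h2bc.

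Hist1h2be, another H2B gene with an annotated end past the hairpin, had the same order of genotypes at a much lower level. Its libraries held 11.5 and 15.97 (mouse 4001), 11.2 (mouse 4002), and 19.6 and 12.8 (mouse 4007), against 34.6 and 38.0 in WT. The groups did not overlap, and the limma log2 difference was −1.36 (SE 0.50) with an adjusted p of 0.22. Its exons overlap the gene model Gm11398, and reads of the 2 could not be separated. The H2B genes Hist3h2ba and Hist1h2bg did not separate the genotypes, Hist3h2ba with 38.2 to 60.9 in LBR-null against 61.4 and 54.3 in WT, and Hist1h2bg with 4.56 to 9.46 against 3.94 and 5.43.

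Hist2h2be, the H2B gene with the longest exonic sequence among the abundant members, was not lower in LBR-null mice. It was listed at 706 and 691 in mouse 4001, 449.7 in mouse 4002, and 500.1 and 557 in mouse 4007. The WT libraries held 457 and 480.4, so that mouse 4002 was below WT and the others above. The limma log2 difference was 0.23 (SE 0.32) with an adjusted p of 0.74.

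Hist1h1c, an abundant linker histone gene of non-dividing cells, differed more among the LBR-null mice than between the genotypes. It was listed at 2076 and 2113 in mouse 4001, 654 in mouse 4002, and 1190.2 and 1202 in mouse 4007. The WT libraries held 1160.0 and 1136, near the middle of that range. Mouse 4001 was thus above WT, mouse 4002 below and mouse 4007 about level with it, and limma gave a log2 difference of 0.039 (SE 0.59, adjusted p 0.98). Hist1h1e, at 8.04 to 24.2 against 12.6 and 8.14, and Hist1h1d, at 1.15 to 10.3 against 11.0 and 6.33, overlapped between the genotypes.

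**Figure D3:**
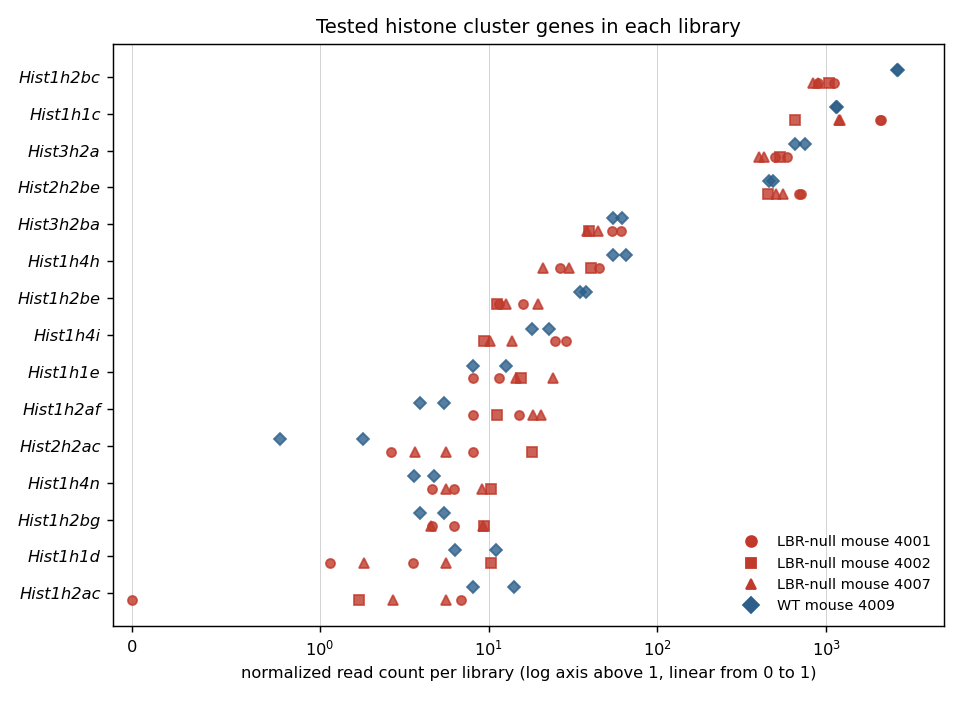
Normalized read count in each library (horizontal log axis above 1, linear from 0 to 1) for the 15 members with a mean of at least 5, ordered by level. Each point is a library, its shape is the mouse, and red is LBR-null and blue is WT. Hist1h2bc lies at 831 to 1102 in LBR-null and at 2631 and 2670.5 in WT, while the Hist1h1c points of the LBR-null mice fall on both sides of WT.

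Among the H2A genes, Hist3h2a was the most abundant. Its LBR-null libraries held 581 and 499.6 (mouse 4001), 529.6 (mouse 4002), and 400.5 and 428 (mouse 4007), and its WT libraries 656 and 746. Every LBR-null library was below WT, with a limma log2 difference of −0.51 (SE 0.28, adjusted p 0.37). Its exons overlap Trim17, and whether the counting used strand is not given in the sources used here.

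The low H2A genes went both ways. Hist1h2af was listed at 8.04 and 15.1 (mouse 4001), 11.2 (mouse 4002), and 20.49 and 18.2 (mouse 4007), against 3.94 and 5.43 in WT, which are 5 and 6 reads. Hist2h2ac had 7 and 3 reads in mouse 4001, 21 in mouse 4002, and 6 and 4 in mouse 4007, against 1 and 2 reads in WT. Both were above WT in every LBR-null library. For Hist2h2ac the ratio of LBR-null to WT per library was 6.09, with a 95% exact interval of 1.94 to 30.7 that covers counting error only. Mouse 4002 held 21 of the 41 LBR-null reads, and without it the ratio was 3.80 (exact interval 1.13 to 19.96) and the mean fell below the minimum for the fit. Hist1h2ac had 6 and 0 reads in mouse 4001, 2 in mouse 4002, and 6 and 3 in mouse 4007, against 18 and 9 in WT, and was below WT in every LBR-null library. The limma log2 differences were 1.36 (SE 0.59, adjusted p 0.28), 1.94 (SE 0.86, adjusted p 0.29) and −1.62 (SE 0.68, adjusted p 0.27) in this order. Each of these genes reached the minimum mean of 5 only through the group in which it was high. In Hist1h2af, 58.4% of the windows had an exact copy elsewhere in the genome.

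Of the H4 genes, Hist1h4h was highest, and its hairpin is of the form found in H4 genes. It was listed at 44.8 and 26.6 in mouse 4001, 40.4 in mouse 4002, and 29.8 and 20.96 in mouse 4007, against 54.3 and 65.1 in WT. The groups did not overlap, with a limma log2 difference of −0.83 (SE 0.46, adjusted p 0.39). Hist1h4i, at 9.46 to 28.7 against 22.8 and 18.1, and Hist1h4n, at 4.59 to 10.3 against 4.72 and 3.62, overlapped between the genotypes. In Hist1h4n, 87.2% of the windows had an exact copy elsewhere in the genome, with copies in Hist1h4m, a row at 0 in all libraries.

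**Figure D4:**
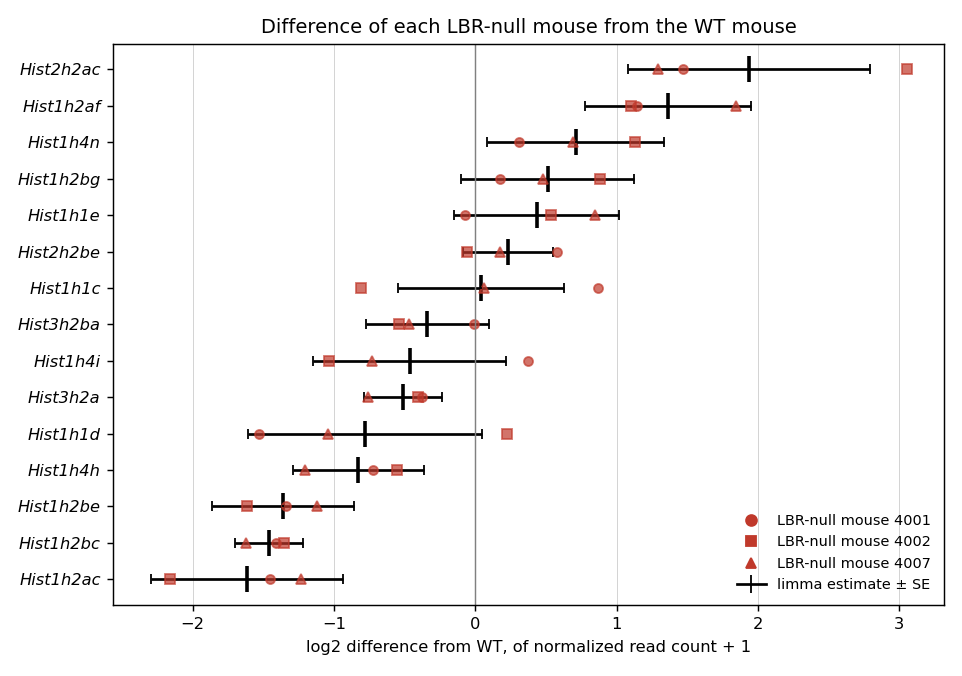
Log2 difference of each LBR-null mouse from the WT mouse in normalized read count + 1 (points, shaped by mouse) and the limma estimate ± SE (black) for the 15 tested members. Hist1h2bc has the shortest error bar (0.24), and its 3 mice lie between −1.62 and −1.35, while the mice of Hist1h1c lie between −0.81 and 0.87.

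Among all 57 members above 0, 17 (29.8%) were 2-fold lower and 8 (14.04%) 2-fold higher in LBR-null, where 8.8% and 22.7% of all genes above 0 were. Of these, 14 of the 17 and 6 of the 8 had a mean under 5. Of the 42 untested members above 0, 4 were lower in all 5 LBR-null libraries than in either WT library, where 3.78% of all untested genes above 0 were. They were the H4 genes Hist1h4c and Hist1h4k, the H3 gene Hist1h3d and the linker gene Hist1h1b, named after their values were seen. Hist1h1b had 2 reads both in mouse 4002 and in a WT library, so that its place rested on the scaling alone. None (0) of the 42 lay above WT in this way, where 8.98% of the untested genes above 0 did. Hist1h4c, the highest of them, had 1.86 to 3.44 normalized counts in LBR-null libraries and 6.30 and 10.9 in WT.

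Annotated head to head were 13 pairs of members (26 genes), with starts 167 to 305 bases apart, and each of these joined an H2A to an H2B gene. The sequences between the starts of the 2 pairs that hold the most abundant H2B genes are given because their members could be compared, with CCAAT and the octamer ATTTGCAT in capitals on either strand. CCAAT is bound by the factor NF-Y and the octamer by OCT1, a known activator of H2B genes.
Hist1h2ac to Hist1h2bc, chr13:23775818-23776067, plus strand: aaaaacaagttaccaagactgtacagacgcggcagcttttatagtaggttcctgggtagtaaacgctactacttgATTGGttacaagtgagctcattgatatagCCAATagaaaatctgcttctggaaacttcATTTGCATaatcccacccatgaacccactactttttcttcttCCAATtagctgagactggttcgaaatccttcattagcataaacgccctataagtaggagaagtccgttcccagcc
Hist2h2ac to Hist2h2be, chr3:96024804-96025043, plus strand: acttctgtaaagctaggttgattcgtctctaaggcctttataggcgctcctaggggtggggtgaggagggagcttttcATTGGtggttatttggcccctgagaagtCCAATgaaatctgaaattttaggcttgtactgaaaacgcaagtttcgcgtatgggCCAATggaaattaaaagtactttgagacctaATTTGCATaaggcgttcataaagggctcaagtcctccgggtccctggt

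The genes on the 2 sides of these sequences differed widely in level. The mean of Hist1h2bc was 271 times that of Hist1h2ac, and the mean of Hist2h2be was 73.2 times that of Hist2h2ac, in normalized counts not corrected for length. Both members of the first pair were below WT in all LBR-null libraries, with log2 differences of −1.46 and −1.62. Hist1h2ac reached the minimum mean of 5 only through the WT mouse (11.2, against 3.11 in LBR-null), so the filter favoured its direction. In the second pair Hist2h2ac was above WT in every LBR-null library and Hist2h2be overlapped with WT. In windows from 250 bases before to 50 after the start, CCAAT on either strand was found in 56 of 66 coding members (84.8%, against 37.9% of 22367 coding genes). The octamer was found in 15 (22.7%, against 1.73%) and TATAAA in 38 (57.6%, against 13.4%). A stretch rich in CpG at a start was found in 64 of 66 coding members (97.0%, against 70.4% of the 19169 coding genes with deposited values). Here any coding transcript start of a gene counted, whereas the motifs were sought at the gene start only. A match is a description of the sequence and not of binding.

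The Hist1 cluster spans chr13:21807632-24026720 and holds 52 other genes with deposited values, of which 34 are vomeronasal receptor genes. Of the 52, 9 were tested, with a median log2 difference of −0.039. Slc17a3, a transporter gene of the proximal tubule, had the largest of the 9 differences and did not pass the test (232 ± 56.0 against 2643 normalized counts in WT, limma log2 difference −3.53, adjusted p 0.058), while Hfe, which controls iron uptake, stood at 581 ± 89.9 against 590.0. Both were picked after their values were seen.

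The genes that encode variant histones outside the clusters did not share one direction. Of 11 found in the files, all were tested, 6 had a negative and 5 a positive log2 difference, and the median was −0.015. H2afx, whose product marks DNA breaks when phosphorylated, was listed at 275 to 429.9 in LBR-null libraries and at 636 and 635 in WT (limma log2 difference −0.93, adjusted p 0.20). Cenpa, the centromeric H3 variant, was at 105 to 144 against 209 and 204 (−0.83, limma adjusted p 0.26), also with no overlap. H3f3b, which encodes the replacement variant of H3, lay above WT in every LBR-null library, at 12524 to 17724 against 9496 and 9552 (0.59, limma adjusted p 0.40).

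Of 17 genes for the 3′ end formation and decay of histone mRNA, 11 had a negative and 6 a positive log2 difference with a median of −0.089, and none had an unadjusted p under 0.05. Slbp itself was at 522 to 806 in LBR-null libraries and 825 and 834 in WT (limma log2 difference −0.34, adjusted p 0.58). Upf1, needed for the decay of histone mRNA, was at 721 to 1336 against 1818 and 1764 (−0.79, limma adjusted p 0.31). Cstf2 was at 364 to 414 against 536 and 599 (−0.51, limma adjusted p 0.34), and Srrt at 827 to 2142 against 2134 and 2013 (−0.51, limma adjusted p 0.59). Npat, which activates histone gene transcription at S phase, lay above WT in all LBR-null libraries, at 481 to 696 against 397 in both (0.48, limma adjusted p 0.40). In all, 5 of these 17 genes lay below WT in every LBR-null library (25.7% of all tested genes did) and 3 above (25.5%). Of 17 histone chaperone genes the median was −0.072, and Asf1b, the form of proliferating cells, was lowest at 12.4 to 31.0 against 84.3 and 75.1 (−1.94, limma adjusted p 0.11), and was called lower by DESeq2 (adjusted p 0.013).

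Markers of S phase and the cell cycle were mostly lower in the LBR-null libraries. Of 23 such genes, 17 were below both WT values in all LBR-null libraries (25.7% of all tested genes were) and 0 were above. In limma 15 were lower at an unadjusted p under 0.05 (8.05% of tested genes) and 0 were called after adjustment, while DESeq2 called 12 lower (3.48% of its genes). Their median log2 difference was −1.31. Their summed level was 4723 to 6248 normalized counts in the LBR-null libraries and 9689 and 9950.1 in WT. Mki67 was at 41.9 to 117 against 1026 and 1077 (limma log2 difference −3.72, adjusted p 0.087), and Ccnb1, Ccna2 and Cdk1 had log2 differences of −3.21, −2.93 and −2.83. Their part in the levels of Hist1h2bc and the other members was not tested.

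**Figure D5:**
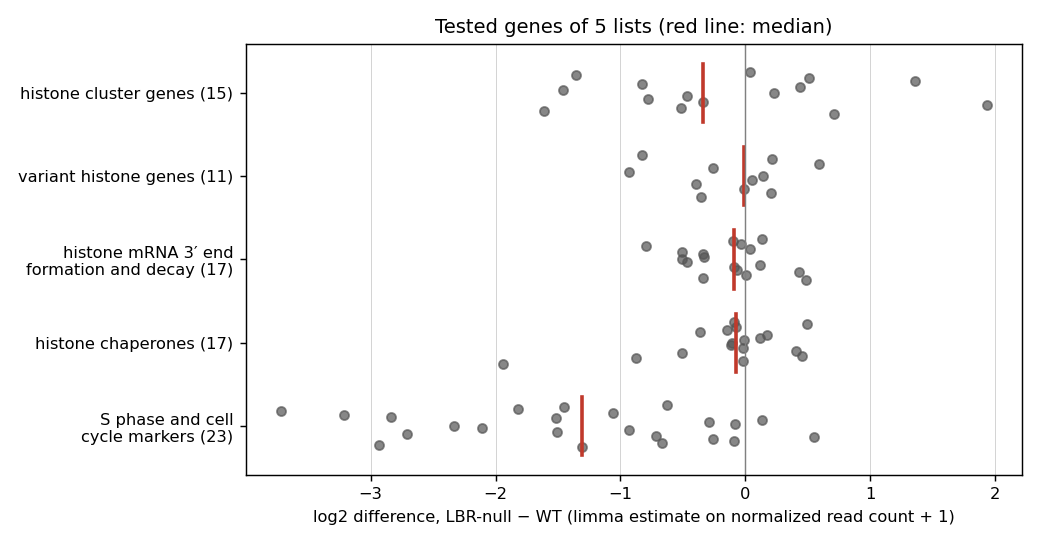
Limma log2 difference between LBR-null and WT (horizontal axis) of each tested gene in 5 lists, with the number of genes in parentheses and the median as a red line. The median is −0.34 for the histone cluster genes, −1.31 for the S phase and cell cycle markers, and between −0.089 and −0.015 for the other lists.

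Other properties of the libraries also differed between the mice, and not all of them followed genotype. The counts of markers below or above WT in every library stand against 25.7% below and 25.5% above among all tested genes. Neutrophil markers summed to 383 to 2476 in LBR-null libraries and to 81.4 and 90.6 in WT, with 6 of 8 tested genes above WT in every library, and 0 of the 10 listed genes were at 0 throughout. Of 4 tested erythroid markers 2 lay below and 1 above WT (sums 951 to 1138 against 2566 and 2686, and 400.2 to 547 against 539 and 463 without Alas2), and of 6 tested leukocyte markers 4 lay below and 1 above (sums 1443 to 1652 against 2086 and 2092). All 12 kidney markers were detected, with 7 below and 1 above WT (sums 193972 to 412300.0 against 579523 and 599128). Without Kap, the most abundant of them, the kidney sums were 133105 to 236111 against 232520.0 and 231839, and overlapped. Xist was at 5352 to 10162.5 in mice 4001 and 4007, at 65.3 in mouse 4002, and at 39.4 and 31.7 in WT, and the labels give no sex. The Y-linked gene Ddx3y was at 149 and 133 in mouse 4001, 1516 in mouse 4002, 49.4 and 39.2 in mouse 4007, and 1299 and 1269 in WT. Mouse 4001 thus held high Xist together with Ddx3y between the levels of mouse 4007 and of mouse 4002. Mouse 4002, whose Xist and Ddx3y levels were near those of the WT mouse, had log2 differences from WT of −1.35 for Hist1h2bc, −0.81 for Hist1h1c and −0.40 for Hist3h2a. Lbr RNA was at 314 to 495 in LBR-null and at 416 and 381 in WT. The part of blood cells, tubule composition and sex in the members' values was not tested.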

How the data were processed

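Poly(A)-selected RNA of 7 kidney libraries was sequenced in paired 150 bp reads. The authors aligned to mm9 with STAR 2.6.0 and deposited, per gene symbol, a normalized signal, the read count divided by the size factor of DESeq2 1.25.1. The counting program, annotation and strand setting are not given in the sources used here. All deposited values (100%) were whole multiples of 1 read within 0.01 read. Libraries of the same mouse differed by more than sampling noise (chi-square per degree of freedom 2.53 to 15.0) and were averaged. Whether they came from separate aliquots is not stated.

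Mouse means entered limma 3.58.1 (eBayes with trend, R 4.3.3) as log2(value + 1) where the mean over mice reached 5, and p-values were adjusted by Benjamini-Hochberg. With 2 residual degrees of freedom, the spread came from the LBR-null mice and was taken to hold for the WT mouse too. As alternatives, edgeR 4.0.16 (quasi-likelihood) and DESeq2 1.42.0 took recovered reads summed per mouse, and other pseudocounts, filters, scalings and omitted libraries were tried. Sums without the leading gene of a class or list, and the read ratio of Hist2h2ac without mouse 4002, were added after seeing the data. DESeq2 gave 5 of the 15 tested members no adjusted p.

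All 68 symbols matched GENCODE M1 models on mm9, the source of positions and sequences. A hairpin was 2 arms of 6 bases that start with GG and end with CC around a 4-base loop that starts with T. Copied windows were found with BLAST 2.17.0 at 100% identity over 150 bases. A CpG-rich stretch was 200 bases with at least 50% GC and an observed over expected CpG ratio of 0.6 within 500 bases of a start.

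Named members were the 12 highest, the 8 tested with the largest log2 difference, those called by any tool and those tested whose libraries did not overlap between genotypes, with Hist1h2bg added after its values were seen. Lbr, Slbp and up to 4 genes with the largest difference were named from other lists. The members and lists were chosen with earlier results of these data known.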

Additional observations from a re-analysis of the deposited data

How the results depend on the processing

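No member was called higher in LBR-null under any alternative run. The count called lower was 0 with limma and edgeR and 1 (Hist1h2bc) with DESeq2, and ranged from 0 to 1 when a mouse or a WT library was left out. The median log2 difference of the tested members ranged from −0.46 to −0.098 under these omissions. The summed log2 ratio of −0.57 ranged from −0.78 to −0.44, and was −0.85 for mouse 4002 against WT alone. It was −0.016 without Hist1h2bc, −0.41 without the 4 highest members, and −0.57 for the Hist1 rows without Hist1h2bc and Hist1h1c. The 8 members 2-fold higher and 17 lower became 1 and 3 with 5 added to each mean, and 0 and 1 among members with a mean of at least 20. Leaving out a mouse or WT library gave 7 to 15 higher and 18 to 20 lower. The 2 members above and 9 below WT in every library became 3 to 5 and 12 to 18 under these omissions, 4 and 19 with the first library of each mouse, and 16 and 22 with mouse 4002 alone. The comparison of mouse 4002 alone has no test. With fewer libraries fewer must agree, so these counts grow by construction.

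Over 14 named members, 177 of the 181 alternative values with an adjusted p kept their direction and their side of the threshold, and another 18 had no adjusted p. Hist1h1c gave −0.38 without mouse 4001 and 0.46 without mouse 4002, and mouse 4002 alone against WT gave −0.81 for Hist1h1c, −0.059 for Hist2h2be and 0.23 for Hist1h1d. The cause was not tested. Adjusted p values for Hist1h2bc ranged from 8.6e-05 to 0.28, and its log2 difference from −1.52 to −1.35. TMM scaling and equal library totals moved the median of all genes by under 0.03 (log2). No paired analysis was possible because the replicate numbers name libraries within a mouse and each mouse has 1 genotype. With 1 WT mouse, no value here separates genotype from that animal, and members with a few reads per library are limited by counting error.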
